A study of Mus musculus with 4 samples.

Results

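The integrated stress response turns on the translation initiation factor eIF2. Stress-sensing kinases phosphorylate its alpha subunit, phosphatase complexes remove the phosphate, and eIF2B, the exchange factor that recharges eIF2 with GTP, is held back by the phosphorylated form, so that general translation falls while a few messages such as that of the transcription factor ATF4 are translated more. In the brain this switch is known for its part in learning, in the response to misfolded protein, and in vanishing white matter disease, which is caused by variants of eIF2B. The 10 genes described here are 3 of the kinases (*Eif2ak1*, which encodes HRI, *Eif2ak2*, which encodes PKR, and *Eif2ak4*, which encodes GCN2), both regulatory subunits that direct protein phosphatase 1 to eIF2 (*Ppp1r15a*, which encodes GADD34, and *Ppp1r15b*, which encodes CReP), and the 5 subunits of eIF2B (*Eif2b1* to *Eif2b5*). They were taken by symbol and make up 10 of the 32286 features counted.

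The series sequenced RNA from single nuclei of mouse cortex and hippocampus (C57BL/6J, 5 weeks of age) in 4 libraries. The libraries labelled Sel1L fl/fl (replicates 1 and 2) came, by the study's account, from mice with both *Sel1L* alleles floxed. Those labelled Sel1L SynCre (replicates 1 and 2) came from littermates of the line that also carry Cre recombinase under the Synapsin I promoter, which is active in postmitotic neurons. The study asks what SEL1L-HRD1 degradation does in neurons. SEL1L is the partner of the ubiquitin ligase HRD1 in degradation of misfolded endoplasmic reticulum protein. By the study's account the Cre line removed it from only part of the cortical neurons. In the hippocampus the loss was near complete in CA3 and the dentate gyrus (DG), and SEL1L was largely kept in CA1. A class, above all a cortical one, can therefore mix deleted and intact cells. Each library is taken as 1 mouse, so p-values for genotype below rest on 2 libraries against 2 and measure the spread between these libraries only. Tests of level set cell classes against each other within the same 4 libraries, with library as a block. Several class sums then come from each mouse, so their p-values, however small, still rest on these 4 libraries.

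The libraries held 33281 nuclei after filtering and 66275598 to 101023786 unique molecular identifiers (UMIs) each, and 101 barcode sequences were shared between libraries. Nuclei were clustered and named from marker genes, and each name stands for nuclei that are like that type, also where the plots shorten it. The endothelial-like cluster of 639 nuclei also had VLMC genes (*Slc6a13*, *Bnc2*) among its leading genes. Clustered without integration of the libraries, 300 nuclei were endothelial-like. Pericyte-like (122 nuclei) and VLMC-like (91) clusters and an unnamed one with *Slc6a13* among its leading genes (183) then stood apart. The endothelial-like class below can thus mix these types. None of the 10 genes was among the features used for clustering. *Sel1l* RNA, whose 3′ counts do not show whether the floxed part is present and so do not check the deletion, stood at 96.9 and 90.3 CPM (counts of UMIs per 1000000 UMIs of the same nuclei) in the Sel1L fl/fl libraries and at 155 and 128 in the Sel1L SynCre libraries. RNA of the Cre transgene had 415 UMIs in replicate 1 of the libraries labelled Sel1L fl/fl, 0 in replicate 2, and 235 and 218 in the Sel1L SynCre libraries. Because of this count in a library labelled without Cre, the genotype call among the 10 genes and the counts for the ATF4 list are also given without Sel1L fl/fl replicate 1. By *Xist* and *Ddx3y*, replicate 1 of each genotype was male and replicate 2 female.

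Of the 10 genes, *Ppp1r15a* was the only 1 called different between genotypes in any class tested: it was higher in Sst-like interneurons of the Sel1L SynCre libraries. The 3 kinases and 5 eIF2B subunits passed the test in no class, while genes downstream of eIF2 and the ER-resident PERK inhibitor *Dnajc3* were higher in several. UMIs were summed per library and class and tested in edgeR in 17 classes, of which 11 were neuron subtypes and 1 was all neuron-like nuclei together. A further 3 named neuron subtypes, given in the last paragraph, were left out as separate classes. They had 65 to 259 nuclei per library, above the minimum of 25 used for a class. Their nuclei count only within all neuron-like nuclei, and the neuron subtypes below are the 11 tested. The make-up of all neuron-like nuclei differed between libraries. A cluster in it with *Zic1* and *Zic4* among its leading genes had 280 and 15 nuclei of Sel1L fl/fl and 70 and 69 of Sel1L SynCre. The part of this mix in results for all neuron-like nuclei was not tested. Of the 170 pairs of gene and class, 155 passed the filter on low counts and 15 did not. Of these 155, 1 was called at an adjusted p below 0.05, against 1.65% of all gene tests over the same classes (0.937% higher and 0.71% lower). At an unadjusted p below 0.05, 13 of the 155 pairs passed (12 higher and 1 lower in Sel1L SynCre), which is 8.39%, against 12.2% of all gene tests. The groups did not overlap in 36 pairs with the Sel1L SynCre libraries higher (23.2%) and in 25 with them lower (16.1%). Among all gene tests these shares were 21.5% and 21.0%. The share of calls among the 10 genes was thus not above that among all genes. By role, the unadjusted p was below 0.05 in 8 of 28 tests of the phosphatase subunits (28.6%, all higher). For the kinases it was so in 2.33% of 43 tests and for the eIF2B subunits in 4.76% of 84. These tests share libraries and nuclei, and some genes passed the filter through the Sel1L SynCre libraries alone, so the shares are descriptions.

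**Figure D1:**
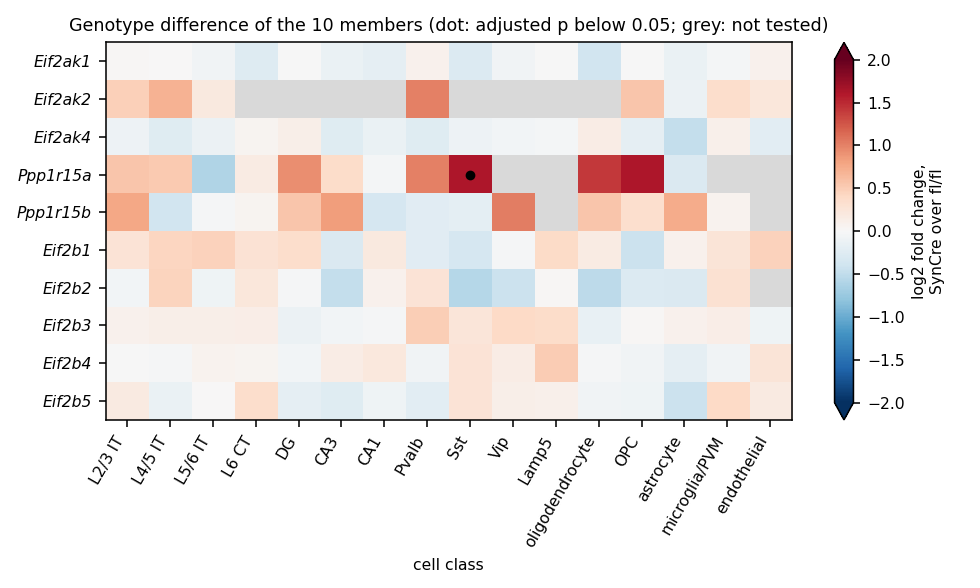
Log2 difference between Sel1L SynCre and Sel1L fl/fl libraries (colour) for the 10 genes (rows of the map) in 16 separate cell classes (columns), from edgeR on summed UMIs with 2 libraries per genotype. Grey marks a gene below the filter on low counts and the dot an adjusted p below 0.05, which *Ppp1r15a* reached in the Sst-like class (1.61).

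The kinases answer different stresses. HRI senses heme shortage and mitochondrial stress, PKR binds double-stranded RNA, and GCN2 senses uncharged tRNA. *Eif2ak1* (chromosome 5, 143817788 to 143904251, plus strand, GRCm38) was read in all classes at similar levels. Its level over the 4 libraries went from 48.7 ± 7.64 CPM (SD, n = 4) in microglia-like to 25.4 ± 8.89 in endothelial-like nuclei, and each of the 15 neighbours in the order of 16 classes overlapped with the next. Against neuron-like nuclei, it was lower in OPC-like nuclei by a log2 difference of -0.66 (SE 0.13, edgeR adjusted p = 0.000114) and in oligodendrocyte-like nuclei by -0.32 (SE 0.12, adjusted p = 0.0199). The second call was lost without Sel1L SynCre replicate 1 (-0.26, adjusted p = 0.117), without Sel1L SynCre replicate 2 (-0.27, adjusted p = 0.0782) and in the Sel1L fl/fl libraries alone (-0.19, adjusted p = 0.189). With TMM (trimmed mean of M values), the main scaling, it was also called lower in endothelial-like (-0.91, edgeR adjusted p = 0.000148) and astrocyte-like nuclei (-0.49, adjusted p = 0.00161). Scaling by total UMIs called neither. Microglia-like nuclei, the highest by CPM, differed by -0.05 with TMM (adjusted p = 0.723) and 0.42 with total UMIs (adjusted p = 0.00392). *Eif2ak1* overlaps *Ankrd61* (6945 bases) and *Aimp2* (1548 bases) on the other strand, and the strand setting of the counting is not given in the sources used here.

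*Eif2ak2* (chromosome 17, 78852564 to 78882573, minus strand) had the widest range of levels. Microglia-like nuclei held 64.4, 79.1, 95.0 and 92.6 CPM in Sel1L fl/fl replicate 1, Sel1L fl/fl replicate 2, Sel1L SynCre replicate 1 and Sel1L SynCre replicate 2, the order used for all levels below. Endothelial-like nuclei followed at 37.9, 52.8, 50.4 and 48.6, and astrocyte-like nuclei at 34.9, 38.8, 38.2 and 28.3. OPC-like nuclei stood apart from both neighbours at 10.8, 16.3, 15.7 and 23.2. The other 12 classes, which are the neuron subtypes and the oligodendrocyte-like nuclei, had means of 7.55 (Lamp5-like) down to 1.31 ± 0.248 (CA1-like), and all their neighbours overlapped. The mean level of microglia-like nuclei was 63.2 times that of CA1-like neurons. In edgeR with library as a block, the log2 difference from neuron-like nuclei was 4.76 (SE 0.18) in microglia-like, 3.88 (SE 0.26) in endothelial-like, 3.72 (SE 0.19) in astrocyte-like and 2.61 (SE 0.23) in OPC-like nuclei. Adjusted p-values for *Eif2ak2* ran from 4.45e-18 to 4.05e-10. In oligodendrocyte-like nuclei it was -0.42 (SE 0.36, adjusted p = 0.304), which did not pass the test.

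The promoter of *Eif2ak2* is shown because PKR is known as an interferon-induced kinase and its RNA was so uneven between classes. The window runs from 250 bases before to 50 bases after the RefSeq start (chr17:78882523-78882822, minus strand, RefSeq GRCm38.p6), with 2 copies of GAAA spaced by any 2 bases, the core of an interferon-stimulated response element, in capitals.
Eif2ak2: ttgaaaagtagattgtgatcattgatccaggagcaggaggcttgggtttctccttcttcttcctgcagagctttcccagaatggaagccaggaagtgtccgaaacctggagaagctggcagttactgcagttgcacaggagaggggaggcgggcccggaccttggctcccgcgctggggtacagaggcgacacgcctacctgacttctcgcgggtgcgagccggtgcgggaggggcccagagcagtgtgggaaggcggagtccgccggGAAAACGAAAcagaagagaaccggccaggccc
The match begins 18 bases after the start. This spaced pair was found on either strand in 3.44% of 32851 promoter windows, and a match describes the sequence only.

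*Eif2ak4* (chromosome 2, 118388618 to 118475234, plus strand) was highest in Pvalb-like interneurons, at 120, 123, 100 and 116 CPM in the same order of libraries. This level lay above every library of the next class, microglia-like nuclei, at 93.0 ± 6.05 (SD, n = 4). The other interneuron classes came next, with 88.4 ± 5.18 in Sst-like, 84.5 ± 7.47 in Lamp5-like and 80.8 ± 5.00 in Vip-like neurons, which overlapped with each other and were apart from CA1-like neurons (62.8 ± 2.35). The lowest were L4/5 IT-like (37.2 ± 3.63) and L2/3 IT-like neurons (35.7 ± 2.87), and the ratio of highest to lowest mean was 3.22. Neuron subtypes were not tested against each other for level, so this order is a description.

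**Figure D2:**
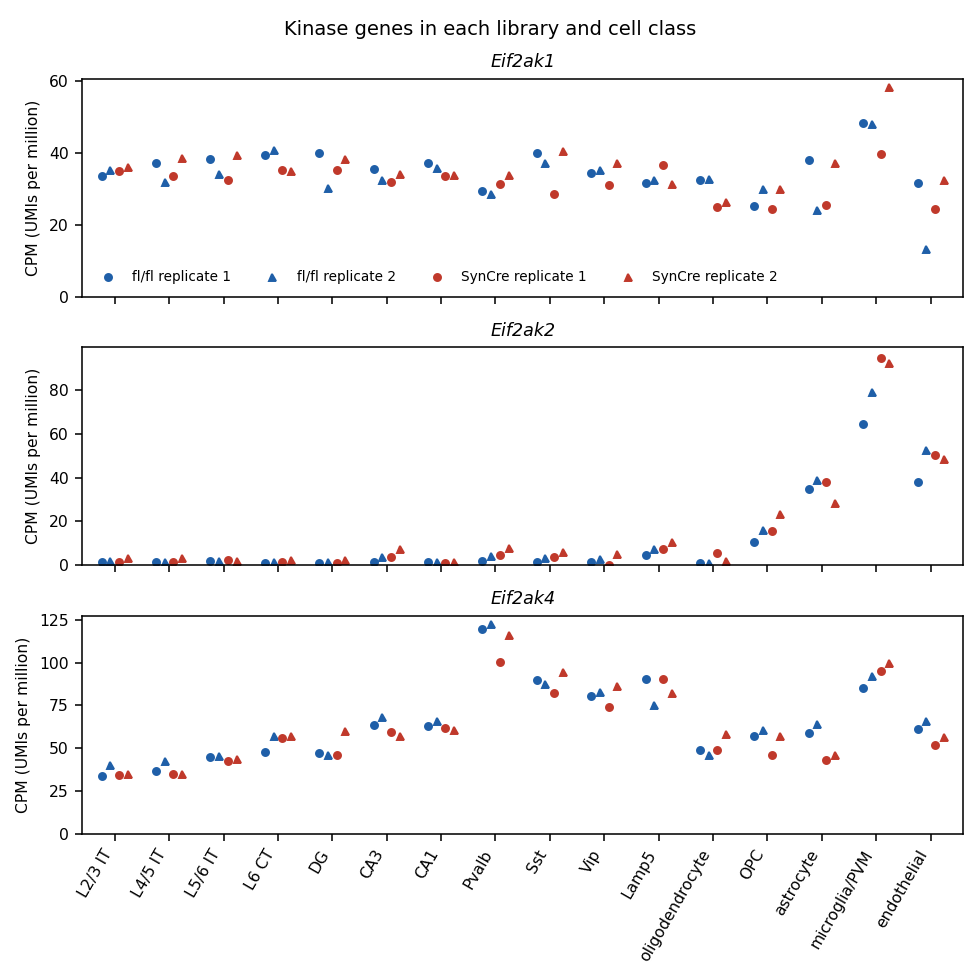
CPM (linear axes) of the 3 kinase genes in each library (points; blue Sel1L fl/fl, red Sel1L SynCre, circles replicate 1, triangles replicate 2) and each of 16 cell classes. *Eif2ak1* lies near 1 level in most classes, *Eif2ak2* is high in microglia-like, endothelial-like and astrocyte-like nuclei, and *Eif2ak4* is highest in Pvalb-like neurons (115 ± 10.0, SD, n = 4).

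No kinase gene passed the edgeR genotype test in any of 43 tests (1 at an unadjusted p below 0.05), and the median log2 difference over these was -0.05. *Eif2ak1* was lower without overlap in oligodendrocyte-like nuclei, at 33.1 and 33.4 CPM in Sel1L fl/fl and 25.9 and 25.3 in Sel1L SynCre (log2 difference -0.38, SE 0.22, edgeR adjusted p = 0.575). These and later gene levels set between genotypes are scaled by TMM unless stated. CPM compared between classes, and all marker sums, are not scaled by TMM. *Eif2ak4* was lower without overlap in 9 of 17 classes and higher without overlap in 2, where 21.0% and 21.5% of all gene tests were so and where the class of all neuron-like nuclei contains the subtypes. In all neuron-like nuclei it stood at 57.3 and 55.6 against 52.1 and 51.9 CPM, a log2 difference of -0.12 (SE 0.09, adjusted p = 0.632). Its lowest value was in astrocyte-like nuclei, with 59.4 and 67.2 against 44.9 and 44.8 CPM (-0.48, SE 0.20, adjusted p = 0.342). *Eif2ak2* could be tested in 9 classes, and its fitted difference was above 0 in 8. The groups stood apart in 3 of the 9, as higher. The 9 include all neuron-like nuclei, which contain the tested subtypes, so this tally is a description. Without TMM, *Eif2ak2* had 1.44 and 1.79 against 1.30 and 3.14 CPM in L2/3 IT-like neurons. In L4/5 IT-like neurons *Eif2ak2* had 1.24 and 1.40 against 1.19 and 3.10. In microglia-like nuclei, where it was most abundant, it had 67.1 and 81.6 against 96.8 and 92.2 CPM (0.35, SE 0.19, adjusted p = 0.664). The SE of the log2 difference was 0.09 for both *Eif2ak1* and *Eif2ak4* in neuron-like nuclei together. *Eif2ak2* had only 13 to 77 UMIs over the 4 libraries in each neuron subtype, and its SE was 0.42 to 0.51 in the 4 subtypes where it was tested. Its largest difference, 1.01 in Pvalb-like neurons, was not called, and its lowest edgeR adjusted p in any class was 0.328. At this depth neither small changes nor one of this size passed the test.

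GADD34 and CReP bring protein phosphatase 1 to phosphorylated eIF2. GADD34 is the stress-inducible arm, a known product of ATF4 and CHOP that closes the response, and CReP is the constitutive arm. *Ppp1r15a* (chromosome 7, 45522916 to 45526268, minus strand, a gene of 3353 bases, 717 of them shared with *Tulp2* on the other strand) was read from 11 and 11 UMIs in Sst-like neurons of the Sel1L fl/fl libraries and from 29 and 24 in those of Sel1L SynCre, although the latter held fewer nuclei. These counts are 4.0 and 5.91 against 15.2 and 14.4 TMM-scaled CPM, so that both Sel1L SynCre libraries lay above both others. The means were 4.96 ± 1.35 and 14.8 ± 0.567 (SD, n = 2 each), and the log2 difference was 1.61 (SE 0.39, edgeR adjusted p = 0.00805). Of all genes tested in Sst-like neurons 9.06% were called, 5.02% as higher. Without Sel1L fl/fl replicate 1 the *Ppp1r15a* difference was 1.32 (adjusted p = 0.0858), and without Sel1L SynCre replicate 1 it was 1.57 (adjusted p = 0.0743), so neither fit called the gene. DESeq2 gave 1.59 and an adjusted p of 0.145. Within Sst-like neurons the summed astrocyte markers stood at 62.8 and 52.6 against 83.5 and 61.1 CPM, oligodendrocyte markers at 90.5 and 59.5 against 47.6 and 40.7, and microglia markers at 47.0 and 82.1 against 75.1 and 63.5, and their part was not tested. An exact permutation test over 2 libraries against 2 cannot go below 0.333.

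Elsewhere *Ppp1r15a* did not pass the test. Its edgeR p was below 0.05 before correction in Pvalb-like, DG-like, OPC-like, oligodendrocyte-like and all neuron-like nuclei. In Pvalb-like neurons it had 4.51 and 7.16 against 10.4 and 12.4 CPM (1.00, SE 0.36, adjusted p = 0.157). In DG-like neurons it had 2.52 and 3.02 against 5.49 and 4.94 (0.93, SE 0.39, adjusted p = 0.249). In both classes the Sel1L SynCre libraries were the higher pair. Within DG-like neurons the summed astrocyte markers stood at 1085 and 1062 against 776 and 771 CPM, oligodendrocyte markers at 357 and 323 against 264 and 247, and OPC markers at 45.8 and 46.7 against 26.9 and 27.5, and their part was not tested. In CA1-like neurons the groups overlapped, at 2.79 and 4.51 against 3.08 and 3.74 CPM (-0.05, SE 0.43, adjusted p = 0.988). In L5/6 IT-like neurons the order was the opposite, with 5.45 and 4.67 against 3.14 and 3.57 (-0.60, SE 0.32, adjusted p = 0.573). In all neuron-like nuclei together it had 3.56 and 4.24 against 4.78 and 5.59 (0.41, SE 0.18, adjusted p = 0.393). Over 13 classes in which *Ppp1r15a* was tested, 10 differences were above 0 and 3 below, and 7 pairs of groups stood apart as higher and 1 as lower, as 21.5% and 21.0% of all gene tests did. The 13 include all neuron-like nuclei, which contain the subtypes. In OPC-like and oligodendrocyte-like nuclei the gene passed the filter through the Sel1L SynCre libraries alone. This tally can therefore lean to higher and is a description. The gene missed the filter in Vip-like, Lamp5-like, microglia-like and endothelial-like nuclei, where 13 to 36 UMIs were read in all. In Vip-like neurons, which had 6, 3, 12 and 7 UMIs, its levels were 2.95 and 2.17 against 7.51 and 5.81 CPM and did not overlap.

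In glia-like classes *Ppp1r15a* rested on few counts. OPC-like nuclei had 7 and 4 UMIs against 12 and 8, which is 3.37 and 2.48 against 10.7 and 7.82 CPM (1.62, SE 0.58, adjusted p = 0.106). With doublets kept the difference was 0.94. Oligodendrocyte-like nuclei had 17 and 10 UMIs against 7 and 8, from 1876, 1190, 358 and 365 nuclei, which is 2.47 and 2.81 against 6.47 and 7.50 CPM (1.41, SE 0.49, adjusted p = 0.282). The summed level of 6 oligodendrocyte markers within OPC-like nuclei was 1588 and 1055 CPM in Sel1L fl/fl and 111 and 238 in Sel1L SynCre. Clustered without integration, an immature oligodendrocyte-like cluster stood apart, with 115 and 64 nuclei of Sel1L fl/fl and 9 and 3 of Sel1L SynCre. OPC-like nuclei then numbered 397 and 361 against 278 and 244, where they had been 478 and 406 against 284 and 247. The part of these differences in the OPC-like results was not tested.

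The *Ppp1r15a* window (chr7:45526219-45526518, minus strand, RefSeq GRCm38.p6) is shown because it is the gene that passed the test. Capitals mark TGACGTCA, the palindrome bound by the CREB and ATF family, TATAAA, and a spaced pair of GAAA as above.
Ppp1r15a: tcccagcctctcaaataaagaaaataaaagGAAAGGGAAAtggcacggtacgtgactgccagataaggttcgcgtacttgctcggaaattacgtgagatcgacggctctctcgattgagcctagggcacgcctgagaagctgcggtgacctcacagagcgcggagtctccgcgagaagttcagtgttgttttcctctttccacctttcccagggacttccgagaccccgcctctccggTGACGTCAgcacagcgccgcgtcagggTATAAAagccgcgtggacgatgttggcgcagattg
TGACGTCA begins 12 bases before the start and TATAAA 15 bases after it, while the pair of GAAA begins 220 bases before it. On either strand, TGACGTCA was in 1.79%, TATAAA in 13.6%, TGATGNAA (the joint C/EBP and ATF core) in 3.97% and CCACG (part of the ER stress response element) in 32.8% of 32851 windows. Of 8 members with a window, *Ppp1r15a* alone held TGACGTCA, and no window of a member held TGATGNAA. CCACG was found in *Ppp1r15a*, *Eif2ak1*, *Eif2b1*, *Eif2b2* and *Eif2b5*.

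*Ppp1r15b* (chromosome 1, 133131143 to 133139783, plus strand) was called different between broad classes and in no class between genotypes. Its level was 21.3 ± 4.96 CPM (SD, n = 4) in oligodendrocyte-like nuclei, between 14.5 and 19.2 in the other 4 non-neuronal classes, and between 3.87 ± 0.558 (L4/5 IT-like) and 7.19 ± 3.49 (Lamp5-like) in the neuron subtypes. Against neuron-like nuclei it was higher in all 5 classes, by log2 differences of 1.95 (SE 0.17) in oligodendrocyte-like, 1.43 (SE 0.29) in endothelial-like, 1.38 (SE 0.21) in microglia-like, 1.27 (SE 0.20) in astrocyte-like and 1.24 (SE 0.20) in OPC-like nuclei. The edgeR adjusted p-values were at most 0.000105. *Ppp1r15a* differed from neuron-like nuclei in none of the 5, with adjusted p-values of 0.264 to 0.937.

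Between genotypes *Ppp1r15b* reached an unadjusted p below 0.05 in L2/3 IT-like neurons, at 2.70 and 3.52 against 6.15 and 4.55 CPM (0.78, SE 0.31, adjusted p = 0.345), and in oligodendrocyte-like nuclei, at 17.4 and 17.4 against 27.7 and 23.4 (0.55, SE 0.24, adjusted p = 0.428). In Sst-like neurons it had 5.10 and 7.52 against 4.72 and 6.0, and the groups overlapped (-0.20, SE 0.47, adjusted p = 0.861). *Ppp1r15b* missed the filter in 2 classes, and its fewest UMIs in a class over the 4 libraries were 34. Its median SE was 0.34, against 0.39 for *Ppp1r15a*. Whether the 2 phosphatase subunits differ in their response was not tested.

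**Figure D3:**
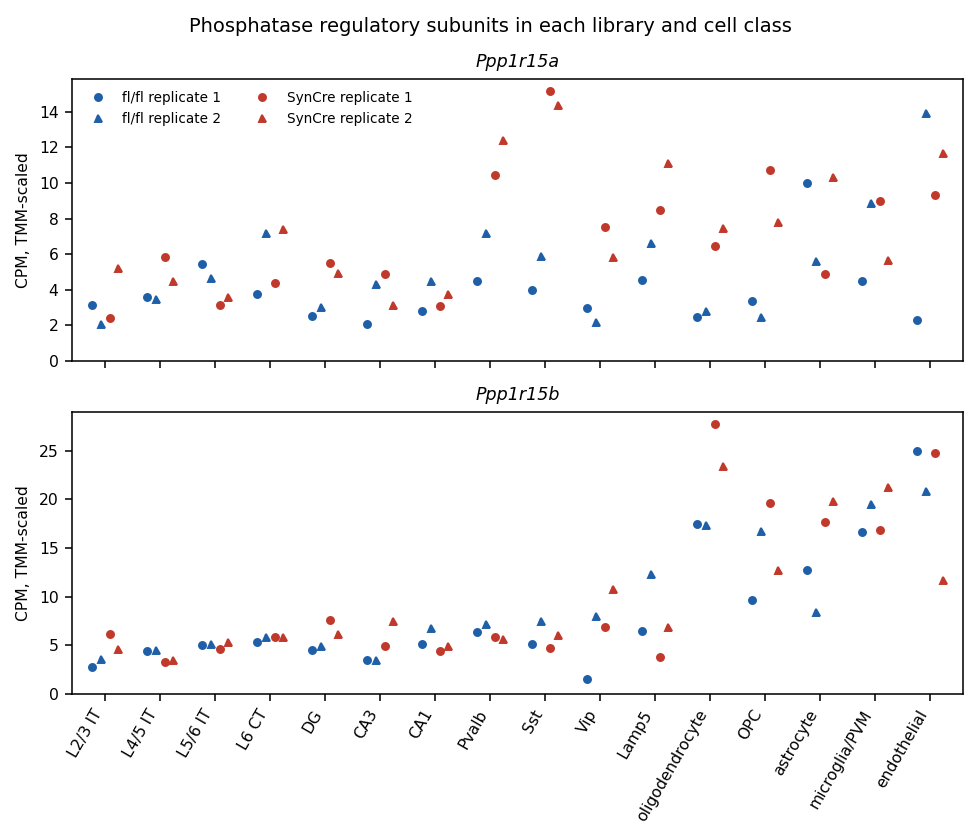
TMM-scaled CPM (linear axes; blue Sel1L fl/fl, red Sel1L SynCre) of both phosphatase subunits in each library (points; circles replicate 1, triangles replicate 2) and each of 16 cell classes. *Ppp1r15a* lies at 14.4 and 15.2 in the Sel1L SynCre libraries of Sst-like neurons and at 4.0 and 5.91 in the Sel1L fl/fl libraries, and *Ppp1r15b* is high in non-neuronal classes.

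eIF2B is built from paired copies of each subunit, in which *Eif2b5* (epsilon) carries the catalytic domain, *Eif2b3* (gamma) pairs with it, and *Eif2b1*, *Eif2b2* and *Eif2b4* (alpha, beta and delta) form the regulatory core that binds phosphorylated eIF2. None of the 5 was called between genotypes by edgeR in 84 tests (4 at an unadjusted p below 0.05), whose median log2 difference was 0.06. In all neuron-like nuclei together the differences were 0.20 (SE 0.13) for *Eif2b1*, 0.06 (SE 0.11) for *Eif2b2*, 0.08 (SE 0.11) for *Eif2b3*, 0.05 (SE 0.09) for *Eif2b4* and 0.0048 (SE 0.09) for *Eif2b5*. The smallest adjusted p among them was 0.579. In neurons as a whole all 5 lay within 2 SE of 0.

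Unadjusted p-values below 0.05 occurred in 4 single classes, each for another subunit and each with the Sel1L SynCre libraries higher. These are 4.76% of the 84 tests, against 12.2% of all gene tests. *Eif2b3* had 22.5 and 19.8 against 30.9 and 29.2 CPM in Pvalb-like neurons (0.50, SE 0.21, adjusted p = 0.230). *Eif2b4* had 45.4 and 43.6 against 62.2 and 64.1 in Lamp5-like neurons (0.50, SE 0.20, adjusted p = 0.342). *Eif2b2* had 9.03 and 9.74 against 12.7 and 12.8 in L4/5 IT-like neurons (0.44, SE 0.19, adjusted p = 0.315), and *Eif2b5* had 21.1 and 20.1 against 25.6 and 26.9 in L6 CT-like neurons (0.35, SE 0.15, adjusted p = 0.419). No subunit showed such a value in more than 1 class, and none passed the correction. In Sst-like neurons the 5 subunits lay on both sides of 0, from -0.57 (*Eif2b2*) to 0.27 (*Eif2b4* and *Eif2b5*).

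Levels of eIF2B subunits were more even over classes than those of *Eif2ak2*. *Eif2b3* (chromosome 4, 117019402 to 117087306, plus strand) was highest in oligodendrocyte-like nuclei, at 64.2, 57.7, 50.8 and 62.2 CPM, and lowest in Lamp5-like neurons at 18.0 ± 4.93 (SD, n = 4). It was higher in oligodendrocyte-like than in neuron-like nuclei by 0.89 (SE 0.10, edgeR adjusted p = 1.78e-08). *Eif2b1* (0.68, SE 0.15) and *Eif2b2* (0.54, SE 0.16) were also higher there, with adjusted p-values of 0.000219 and 0.00454. The *Eif2b2* call was lost without Sel1L fl/fl replicate 1 (0.46, adjusted p = 0.0780) and without Sel1L fl/fl replicate 2 (0.39, adjusted p = 0.0860). For all 5 subunits each class overlapped with the next in the order of levels. The other subunit genes lie on chromosome 5 (*Eif2b1*, 124570213 to 124579131, minus strand, and *Eif2b4*, 31187558 to 31193430, minus strand), chromosome 12 (*Eif2b2*, 85219481 to 85226628, plus strand) and chromosome 16 (*Eif2b5*, 20498817 to 20509323, plus strand). *Eif2b4* overlaps *Snx17* by 204 bases on the other strand.

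Over the 10 genes and 5 non-neuronal classes, 24 of 50 level tests against neuron-like nuclei were called (14 higher, 10 lower), against 66.1% of all gene tests in this fit. Per class, 3823 to 4949 of all 13963 genes were called higher and 4208 to 5342 lower. Neuron-like nuclei were deeper, with medians of 9987 to 10711 UMIs per nucleus against 1745.5 to 4028 in the other 5 classes, and the part of depth was not tested. Scaling by total UMIs in place of TMM, an alternative added after seeing the data, moved the median log2 difference of all genes to between 0.04 (oligodendrocyte-like) and 0.44 (endothelial-like). Under it 22 tests were called, 20 higher and 2 lower. Of all 13963 genes this scaling called 5062 to 6944 per class higher and 2775 to 4767 lower. Both scalings called 16, of which all 14 higher ones are among those above or are *Eif2b3* in OPC-like (0.28) and *Eif2ak4* in microglia-like nuclei (0.30). The 2 lower ones were *Eif2ak1* in OPC-like and oligodendrocyte-like nuclei. Of these 16, *Eif2ak1* and *Eif2b2* in oligodendrocyte-like nuclei lost the call with a library left out, as given above. *Eif2b3* in OPC-like nuclei lost it without Sel1L fl/fl replicate 1, Sel1L fl/fl replicate 2 or Sel1L SynCre replicate 1 (0.26, 0.30 and 0.27, adjusted p = 0.137, 0.0814 and 0.0923). *Eif2ak4* in microglia-like nuclei lost it without Sel1L SynCre replicate 1 or 2 (0.27 and 0.26, adjusted p = 0.0507 and 0.0510). The other 8 lower calls were made with TMM and not with total UMIs. Scaling by relative log expression called 25 of the 50 tests, and 8061 to 10310 of all 13963 genes per class. Among the 25 tests were *Eif2ak1* and *Eif2ak4* as lower in astrocyte-like and endothelial-like nuclei.

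To ask whether the genotype difference itself differed between neuron subtypes, DG-like, Pvalb-like and Sst-like neurons were each set against CA1-like neurons with an interaction term. CA1-like neurons were the reference because the study found SEL1L largely kept in CA1. Of CA1-like nuclei 61.7% kept this name without integration of the libraries, the lowest share of any named subtype. With those names 0 of 28 tests on the 10 genes were called. None of 29 tests on the 10 genes passed in edgeR, against 2.68% of all gene tests. At an unadjusted p below 0.05 there were 2, against 12.9% of all gene tests, and DESeq2 had 0 at either level. The largest was *Ppp1r15a* in Sst-like against CA1-like neurons, at a log2 difference of 1.6 (SE 0.54, unadjusted p = 0.00756, edgeR adjusted p = 0.126). With at least 10 counts required in every library it was 1.65 (adjusted p = 0.0375), and with Vip-like in place of CA1-like neurons 0.24 (adjusted p = 0.937). In DG-like and Pvalb-like neurons it was 0.97 (SE 0.54, adjusted p = 0.501) and 1.02 (SE 0.52, adjusted p = 0.450). A response of *Ppp1r15a* particular to Sst-like neurons was therefore not shown.

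The genes whose log2 levels moved most like *Ppp1r15a* over 64 pairs of class and library, among 10348 genes, were *Stt3a*, a catalytic subunit of oligosaccharyltransferase (Pearson r = 0.720), *Slc3a2*, the heavy chain of amino acid transporters (0.698), and *Ddit3*, which encodes CHOP and has 2 gene IDs that overlap by 2925 bases (0.686). These pairs share libraries, nuclei of different depth, and a median of only 13 *Ppp1r15a* UMIs, so the values are descriptions.

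Around the 10 genes, pathway lists gave the setting. None of the 32 listed genes was called lower in any class. Among eIF2 itself and eIF5, which promotes its GTP hydrolysis, *Eif2s2* (eIF2 beta) was higher in DG-like (0.87), Pvalb-like (0.66), Sst-like (0.88), OPC-like (1.15) and oligodendrocyte-like nuclei (0.98), and *Eif2s1*, *Eif2s3x*, *Eif2s3y* and *Eif5* were called in none of 17 classes. Without Sel1L SynCre replicate 1 the *Eif2s2* difference in Pvalb-like neurons was 0.37 (adjusted p = 0.535). *Eif2s2* lies within 21526 bases shared with the gene *a* on the other strand. Of 8 genes on the kinase side, *Dnajc3*, which encodes an ER-lumenal co-chaperone known as an inhibitor of PERK, was higher in 10 of 17 classes and *Eif2ak3*, PERK itself, in 3. In Sst-like neurons *Dnajc3* stood at 40.0 and 34.4 against 329 and 243 CPM (2.93, SE 0.17, adjusted p = 7.23e-11). Its call in L6 CT-like neurons was lost without Sel1L SynCre replicate 1 (0.67, adjusted p = 0.243). *Eif2ak3* stood at 15.3 and 16.5 against 53.3 and 45.6 in DG-like neurons (1.64, SE 0.17), whose marker sums of other cell types are given above. It was also called in Sst-like (1.07, adjusted p = 0.000579) and Pvalb-like neurons (0.64, adjusted p = 0.0412). The Pvalb-like call was lost without Sel1L fl/fl replicate 1 (0.68, adjusted p = 0.0592), without Sel1L SynCre replicate 1 (0.52, adjusted p = 0.272), with DESeq2 (adjusted p = 0.238), with the replicate block (adjusted p = 0.0653) and with the summed UMIs of all neuron subtypes thinned to 1 total (adjusted p = 0.367). So among the 4 kinase genes PERK, measured outside the set of 10, was the only 1 called. The GCN2 cofactors *Gcn1* and *Impact*, and *Abcf3*, *Oma1*, *Dele1* and *Nck1*, were called in no class. Of the catalytic subunits of protein phosphatase 1, *Ppp1cc* was higher in Sst-like neurons (0.58, SE 0.17, adjusted p = 0.0336), a call lost without Sel1L fl/fl replicate 1, Sel1L fl/fl replicate 2 or Sel1L SynCre replicate 2 (adjusted p = 0.0822, 0.0770 and 0.246), with DESeq2 (0.336) and with this thinning. *Ppp1ca* and *Ppp1cb* were called nowhere.

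The list of ATF4 and 15 genes that act with it or are known targets had the most calls, all higher. In Sst-like neurons 14 of 16 passed the filter and 12 were called, with a median log2 difference of 2.23 against 0.0068 over all genes. Calls as higher also came to 7 of 14 for Pvalb-like, 5 of 13 for L4/5 IT-like and 4 of 10 for DG-like neurons, where 2.38%, 1.16% and 2.12% of all genes were so called. OPC-like nuclei had 10 of 13 and oligodendrocyte-like nuclei 5 of 9, against 2.63% and 0.71% of all genes. CA1-like, Vip-like, astrocyte-like and endothelial-like nuclei had 0, against 0.00756%, 0.00892%, 0.782% and 0.0119%. Genes near 0 in the Sel1L fl/fl libraries pass the filter through the other libraries alone, so these shares describe the list and do not weigh it. Leaving out Sel1L fl/fl replicate 1 gave 12 calls for the Sst-like, 7 for the Pvalb-like, 6 for the L4/5 IT-like, 4 for the DG-like, 11 for the OPC-like and 4 for the oligodendrocyte-like class. Over the other alternatives with all 4 libraries the counts ran from 9 to 13 for Sst-like, 4 to 9 for Pvalb-like, 1 to 8 for L4/5 IT-like and 3 to 7 for DG-like neurons, and from 2 to 12 for OPC-like and 0 to 7 for oligodendrocyte-like nuclei. The lowest for OPC-like (2), oligodendrocyte-like (0) and Pvalb-like (4) nuclei came with summed UMIs thinned to 1 total over neuron subtypes and 1 over the other classes, which leaves fewer genes to test, and the lowest for L4/5 IT-like (1) with classes named without integration. That naming left an unnamed cluster, best matched by L4/5 IT, with 1 and 1 nuclei of Sel1L fl/fl and 138 and 141 of Sel1L SynCre. *Slc7a11* and *Ddit3* were among its leading genes, and its part in the count of 1 was not tested. Requiring at least 10 counts in every library left 3 for OPC-like nuclei. Without Sel1L SynCre replicate 1 the count was 4 for Pvalb-like neurons, without Sel1L SynCre replicate 2 it was 8 for DG-like neurons, and without Sel1L fl/fl replicate 2 it was 8 for L4/5 IT-like neurons. *Ddit3*, the most widely called, was higher in 12 of 17 classes (11 without Sel1L SynCre replicate 1, when the call in L2/3 IT-like neurons was lost), and in Sst-like neurons it stood at 8.74 and 9.13 against 86.0 and 72.6 CPM (3.15, SE 0.22). *Slc7a11*, the cystine transporter that pairs with *Slc3a2*, was higher in 7 classes (not in L5/6 IT-like neurons without Sel1L SynCre replicate 1, adjusted p = 0.139), with 4.0 and 6.45 against 174 and 114 in Sst-like neurons (4.83, SE 0.27). *Atf5* was higher in 5 classes, with 7.64 and 5.91 against 42.5 and 39.6 there (2.56, SE 0.27). In 4 classes each came *Trib3*, *Asns*, *Nupr1* and *Eif4ebp1*. In OPC-like nuclei *Nupr1* had 1 and 0 UMIs against 135 and 101, and *Trib3* 0 and 1 against 31 and 8, in the nuclei whose oligodendrocyte marker sums are given above.

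**Figure D4:**
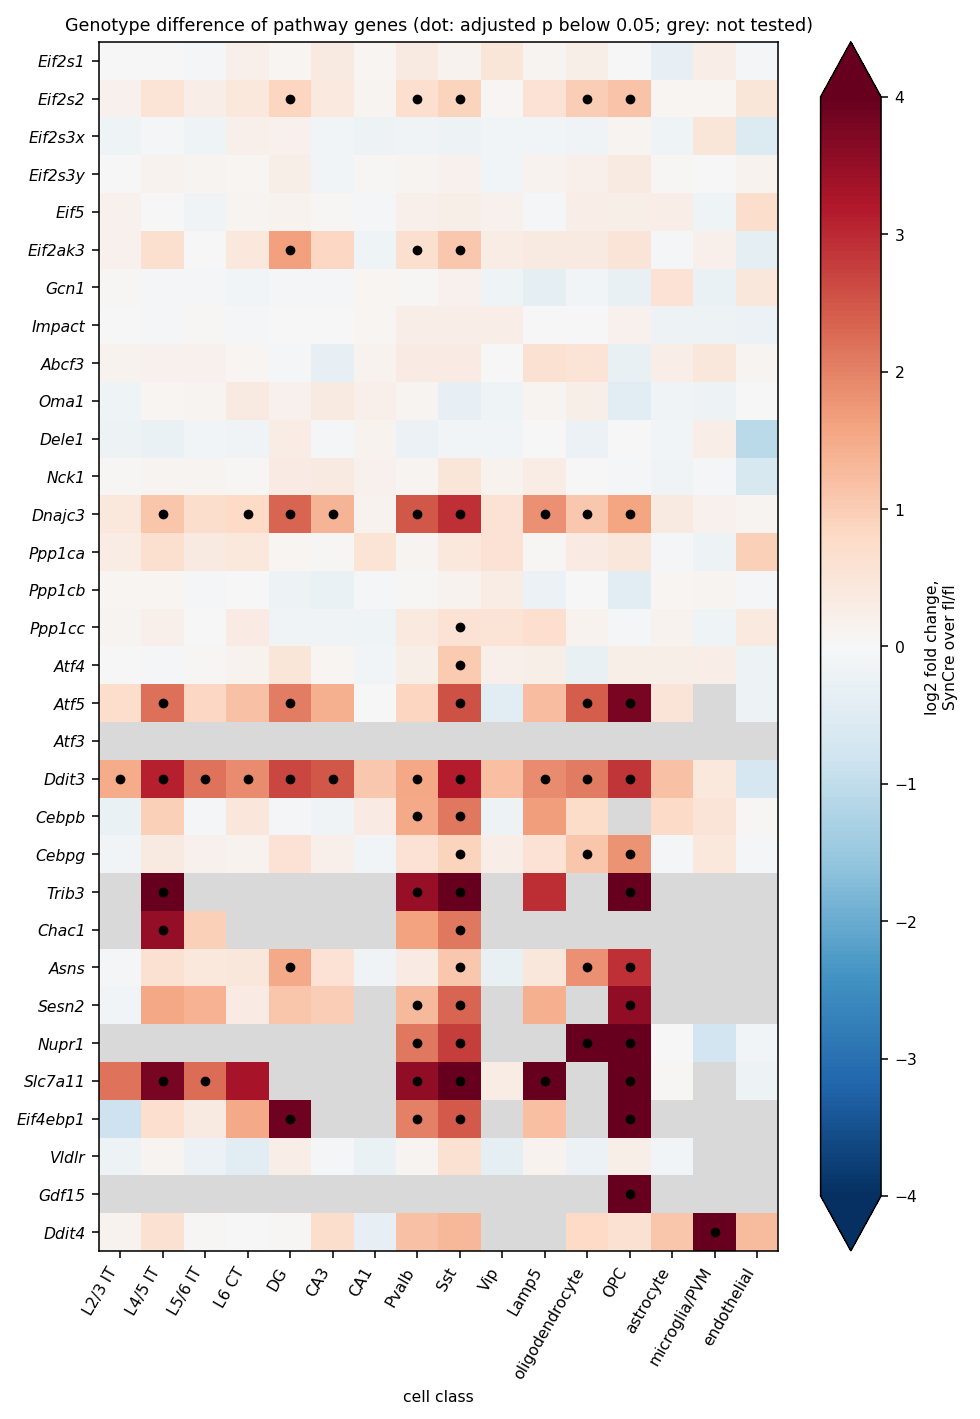
Log2 difference between Sel1L SynCre and Sel1L fl/fl libraries (colour, cut at 4) for the listed pathway genes (rows of the map) in 16 separate cell classes (columns), from edgeR with 2 libraries per genotype. Dots mark an adjusted p below 0.05 and grey a gene not tested, and *Dnajc3* and *Ddit3* carry the most dots while *Eif2s1*, *Gcn1*, *Impact* and *Ppp1cb* carry none.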

How the data were processed

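The deposited matrices hold UMI counts for 4 libraries, made by the authors with Cell Ranger 6.1.0 on GRCm38 (per the submitters' processing notes) and not normalized. Whether introns were counted is not given in the sources used here. Nuclei with more than 600 genes and under 5% mitochondrial UMIs were kept, and doublets were left out with Scrublet. Libraries were integrated and clustered in Seurat 5.3.0 (2000 features, 17 dimensions, resolutions 0.2 and 0.4) and named from marker genes. Counts were summed per library and class and fitted over all genes with the quasi-likelihood test of edgeR 4.0.16 (TMM, filterByExpr, two-sided, Benjamini-Hochberg over all genes of a fit), and SE is the log2 difference divided by the root of F. DESeq2 1.42.0, other scalings and filters, thinning, other names and left-out libraries were alternatives. All 10 members are named, with the 4 most often called genes of each list and the 3 most like genes of a called member. Members and lists were chosen with earlier results of these data known. On simulated counts for 11808 genes of the Sst-like fit, 61% of 2-fold and 97% of 4-fold changes were recovered. The simulation used a preset dispersion, not estimated from these libraries, and changed only genes above a floor of mean counts. These shares therefore do not give the power of the real fits. Gene positions came from GENCODE vM21, in which 32235 of 32286 features were found.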

Additional observations from a re-analysis of the deposited data

Results flagged for a closer look

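RNA of the Cre transgene had 415 UMIs in replicate 1 of the libraries labelled Sel1L fl/fl, which carry no Cre by label, against 0 in replicate 2. The 415 UMIs are 4.11 CPM, where the Sel1L SynCre libraries had 3.52 and 3.29. No interaction test on the 10 genes against CA1-like neurons passed in edgeR, other than *Ppp1r15a* in Sst-like neurons with at least 10 counts in every library (1.65, adjusted p = 0.0375). Several genes around them passed that test (adjusted p below 0.05). In DG-like neurons the excess over CA1-like neurons, on the log2 scale, was 0.78 for *Eif2s2*, 1.62 for *Asns*, 1.83 for *Eif2ak3*, 1.94 for *Atf5*, 1.59 for *Ddit3*, 1.54 for *Sel1l* and 2.16 for *Dnajc3*. In Pvalb-like neurons it was 2.05 for *Sel1l* and 2.23 for *Dnajc3*. In Sst-like neurons it was 0.73 for *Eif2s2*, 0.72 for *Ppp1cc*, 1.17 for *Eif2ak3*, 1.94 for *Sel1l* and 2.70 for *Dnajc3*. Among the ATF4 list in Sst-like neurons it was 1.11 for *Atf4*, 2.43 for *Atf5*, 2.02 for *Ddit3*, 1.75 for *Cebpb*, 0.96 for *Cebpg*, 1.15 for *Asns*, 3.52 for *Sesn2* and 3.85 for *Slc7a11*. The 3 comparisons share the CA1-like nuclei, of which 61.7% kept this name without integration.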

How the results depend on the processing

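Of 719 values under alternatives, 644 kept their direction and side of the threshold or stayed within 1.5 times, 51 lost the threshold, 20 moved by more, 1 gained it and 3 reversed. The 644 include tests that were not called in the main fit and stayed uncalled, so they do not measure how firm the calls are. The 1 genotype call among the 10 genes became 0 with DESeq2 (1 at an unadjusted p below 0.05, against 13 in edgeR), and 0 to 2 with a library left out: 0 without Sel1L fl/fl replicate 1 or Sel1L SynCre replicate 1, and 2 without Sel1L fl/fl replicate 2, when *Eif2b1* in L5/6 IT-like neurons was also called (0.82, adjusted p = 0.0190). With a library left out, its group has 1 sample, assumed to vary like the others. The interaction with CA1-like neurons gave 1 call instead of 0 with at least 10 counts in every library. Under that filter only 5 level tests of the 10 genes remained, of which 4 were called, against 24 of 50 in the main fit. With a library left out 18 to 21 of the level tests were called. Shares over all genes are not given for these alternatives, so the counts are descriptions. With Vip-like in place of CA1-like neurons, the *Ppp1r15a* interaction turned to -0.45 in DG-like and -0.36 in Pvalb-like neurons; Vip-like neurons had 6 and 3 UMIs against 12 and 7. *Eif2ak4* in endothelial-like against neuron-like nuclei turned from -0.43 to 0.10 with total UMIs. With the replicate number as a block, 1 call remained (*Ppp1r15a* in Sst-like neurons, 1.61, adjusted p = 0.00153). Same-numbered libraries deviated together by a correlation of -0.03 to 0.28 over classes, and -0.14 to 0.07 without genes of the sex chromosomes, so the number marks sex and no shared source is stated. Low UMI counts limit *Ppp1r15a* and, in neurons, *Eif2ak2* and *Ppp1r15b*. The 3 named neuron subtypes left out of the tests and level orders were L5/6 NP-like, L5 PT-like and L6b-like neurons. Statements on all classes or on no class do not cover them as separate classes.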
